A study of Sus scrofa with 6 samples.

Results

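A set of 10 genes of iron storage, heme breakdown and iron transport was examined in IPEC-J2 cells, an established epithelial cell line of pig jejunum, given either PBS (CON, n = 3 libraries) or 50 μM chenodeoxycholic acid (CDCA, n = 3 libraries) for 24 h. CDCA is one of the bile acids that the liver makes from cholesterol, and the groups differ in nothing else that the labels name. The 10 genes were ferritin light chain (FTL), ferritin heavy chain (FTH1), the heme oxygenases HMOX1 and HMOX2, the transferrin receptor TFRC, the ferritin receptor NCOA4, the iron exporter SLC40A1, the iron importer SLC11A2 and the iron regulatory proteins ACO1 and IREB2. They were chosen by gene name with the CDCA against CON differences of these same libraries already known, so their levels and fold changes are a description. No p-value is given for any of them, and where they are counted against a limit of the fit over all genes, that count is no test of them. Each name matched 1 of the 31908 gene IDs with deposited values. FTH1 alone had a blank name, and it was found by its description.

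Ferritin is a shell of heavy and light chains that stores iron, and NCOA4 carries it to the lysosome, where the iron is released. Heme oxygenase opens the heme ring and sets iron, carbon monoxide and biliverdin free. Iron enters cells on transferrin through TFRC and crosses membranes through SLC11A2 (DMT1), and in enterocytes it leaves through SLC40A1 (ferroportin). When iron is scarce, the regulatory proteins encoded by ACO1 and IREB2 bind RNA hairpins that block ferritin translation and protect the TFRC mRNA, so mRNA levels report only a part of this control.

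Expression was given as TPM, the number of transcripts among 1000000 after correction for transcript length, and the listed transcripts of each gene were summed. The listed values added up to 351769.8 to 366073.1 TPM per library, against 1000000 for a complete library, and a value can therefore miss transcripts that were not listed. The analysed values hold no read counts, so the reads behind each TPM and their counting error are not given. The 13 mRNAs encoded by mitochondrial DNA took 14.3% ± 0.64 (SD, n = 3) of all listed TPM under CON and 3.20% ± 0.28 (SD, n = 3) under CDCA, and the part of this difference in the results below was not tested beyond the rescaled values given with them. The 9 epithelial markers with a gene ID summed to 653.02 to 673.87 TPM in CON and 1219.99 to 1359.57 TPM in CDCA, mostly through CLDN4. Among them, EPCAM was at 118.45 to 125.87 TPM in CON and 152.2 to 173.29 TPM in CDCA, and KRT8 was at 219.71 to 237.76 and 190.22 to 224.79 TPM, while CDH1 and VIL1, a brush border gene, had group means under 1 TPM in both groups. The 7 leukocyte markers summed to 20.2 to 21.19 TPM in CON and 23.09 to 25.68 TPM in CDCA, most of it LYZ, with the pan-leukocyte marker PTPRC at or near 0 and CD68, which encodes a lysosomal protein of macrophages, at 0 to 0.26 and 4.44 to 5.33 TPM. The fibroblast markers summed to at most 1.83 TPM in any library, the erythroid markers to at most 0.59 TPM in CON and 3.23 TPM in CDCA, nearly all of it EPOR, with the hemoglobin gene HBB at 0, the endothelial markers to at most 2.74 TPM and the hepatocyte markers to at most 2.71 TPM. The part of CD68 and EPOR in the results was not tested. In bulk RNA, a change in the number of cells of one kind and a change in RNA per cell cannot be told apart.

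FTL, HMOX1 and SLC40A1 stood well above CON in every CDCA library, HMOX2 and SLC11A2 stood less far above it, and NCOA4 and IREB2 overlapped between the groups. FTH1, TFRC and ACO1 were listed at or under 1 TPM throughout. The plot of the 10 genes by library shows this order of levels and the distance between the groups.

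**Figure D1:**
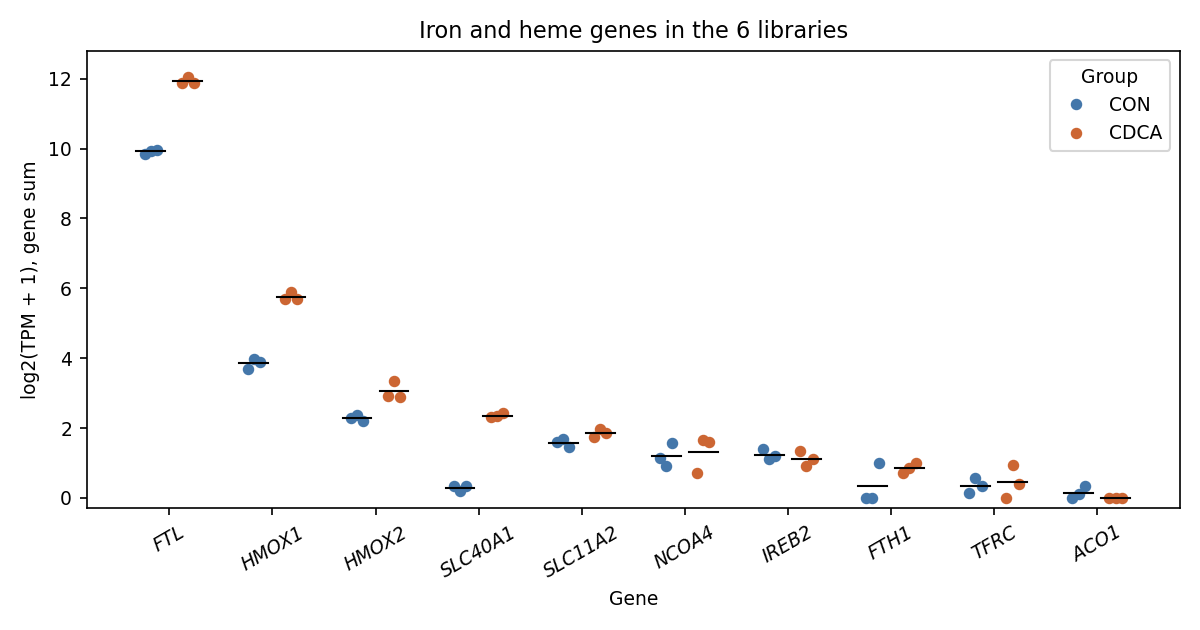
Expression of the 10 iron and heme genes, as log2(TPM + 1) of the gene sum (y axis), with 1 point per library (3 CON in blue, 3 CDCA in orange) and a line at each group mean. The groups lie apart for FTL, HMOX1, HMOX2, SLC40A1 and SLC11A2, and FTL lies far above the other genes in both groups.

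FTL (ENSSSCG00000003153) was listed at 926.74, 982.91 and 992.99 TPM in the CON libraries and reached 3739.24, 4238.26 and 3740.25 TPM in the CDCA libraries. The lowest CDCA library was thus far above the highest CON library, and the spread within each group was small beside the gap. The group means were 967.5 ± 35.7 TPM for CON and 3906 ± 288 TPM for CDCA (SD, n = 3 each), which gave a ratio of 4.04. FTL held rank 61 to 63 among all gene IDs by TPM in CON and rank 8 to 11 in CDCA. The fold change of FTL on log2(TPM + 1) was 2.01 (SE 0.06). A single transcript was listed for FTL, so the value rests on 1 row.

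The heavy chain gene FTH1 (ENSSSCG00000014540) also had 1 listed transcript, at 0, 0 and 0.98 TPM in CON, against 0.65, 0.82 and 0.99 TPM in CDCA. The CON library at 0.98 TPM lay inside the CDCA range. FTH1 encodes the subunit that oxidizes iron as it enters the shell, and its mRNA is common to most cells, so nothing was read from a row listed at 0, and the ratio of heavy to light chain was not computed. FTL and FTH1 together made up 0.267% ± 0.013 (SD, n = 3) of all listed TPM under CON and 1.09% ± 0.06 (SD, n = 3) under CDCA, which is the share of FTL to within the rounding.

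HMOX1 (ENSSSCG00000039745), the inducible heme oxygenase, was listed at 11.91, 14.73 and 13.69 TPM in CON, against 50.55, 58.62 and 50.3 TPM in CDCA. All 3 CDCA libraries were above all 3 CON libraries. The means were 13.4 ± 1.4 TPM (SD, n = 3) and 53.2 ± 4.7 TPM (SD, n = 3), a ratio of 3.95 and a log2 fold change of 1.91 (SE 0.09). Nearly all of it came from 1 of its 2 listed transcripts, since the other reached no more than 0.06 TPM in any library. Although the level of HMOX1 was far below that of FTL, the ratios of the pair were close, at 3.95 and 4.04.

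HMOX2 (ENSSSCG00000007942), the constitutive heme oxygenase, was listed at 3.86, 4.19 and 3.58 TPM in CON, against 6.57, 9.14 and 6.46 TPM in CDCA. The groups did not overlap, and CDCA replicate 2 was well above the other CDCA libraries. The ratio of means was 1.91 and the log2 fold change was 0.77 (SE 0.13). HMOX2 had 4 listed transcripts, which did not move together. The transcript with the highest mean was at 1.47, 1.98 and 1.82 TPM in CON, against 2.45, 2.19 and 1.76 TPM in CDCA, with overlapping groups and a ratio of 1.21. The transcript of rank 2 was at 0.89, 0.53 and 0.69 TPM in CON, against 2.6, 2.84 and 2.48 TPM in CDCA. Its groups lay apart, and the ratio of its means was 3.75. The transcript of rank 3 was at 0.51, 1.12 and 0.46 TPM in CON, against 0.8, 3.53 and 1.74 TPM in CDCA, and it carried the excess of CDCA replicate 2. The transcript of rank 4 differed little, with means of 0.72 and 0.593 TPM. When the transcript with the highest mean stood for the gene, the log2 fold change of HMOX2 was 0.18 in place of 0.77, so the difference between the groups was mainly that of the transcripts of rank 2 and 3.

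**Figure D2:**
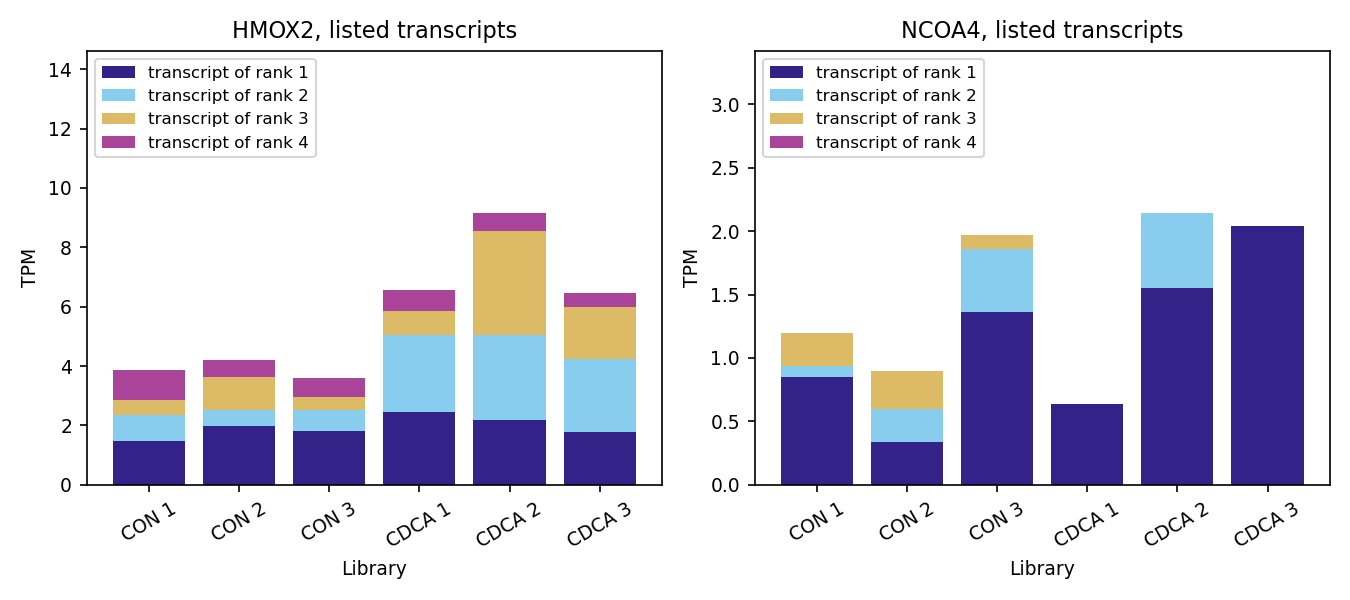
TPM of each listed transcript (y axis, stacked, starting at 0) of HMOX2 (left) and NCOA4 (right) in each of the 6 libraries (x axis), with transcripts ranked by mean TPM. In HMOX2 the transcript of rank 2 goes from 0.53 to 0.89 TPM in CON to 2.48 to 2.84 TPM in CDCA, while that of rank 1 overlaps between the groups. The NCOA4 columns vary as much within a group as between groups.

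SLC40A1 (ENSSSCG00000027157), which encodes the only known cellular iron exporter of mammals, was listed at 0.26, 0.15 and 0.27 TPM in CON, against 4, 4.03 and 4.34 TPM in CDCA. It was far below 1 TPM in every CON library and weakly expressed in every CDCA library, with no overlap. The means were 0.227 ± 0.067 TPM (SD, n = 3) and 4.12 ± 0.19 TPM (SD, n = 3), a ratio of 18.2. Because 1 TPM was added before the logarithm, the log2 fold change of this weakly expressed gene was only 2.06 (SE 0.10). With 0.1 TPM added it was 3.71, and with each library rescaled to 1000000 TPM it was 2.95. SLC40A1 passed the limit of a mean of 1 TPM only through its CDCA libraries. Its ratio was the highest of the 7 genes over that limit, yet in TPM the difference between the group means was far smaller than that of FTL.

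Of the importers, SLC11A2 differed little between the groups and TFRC was listed near 0. SLC11A2 (ENSSSCG00000034039), which moves ferrous iron across the apical membrane and out of endosomes, had CON values of 2.05, 2.22 and 1.74 TPM and CDCA values of 2.32, 2.92 and 2.6 TPM. The CDCA libraries were above the CON libraries by a narrow margin, with a ratio of means of 1.30 and a log2 fold change of 0.27 (SE 0.11). One of its 7 listed transcripts carried most of the sum in every library. TFRC (ENSSSCG00000011848) was listed at 0.11, 0.47 and 0.27 TPM in CON, against 0, 0.93 and 0.31 TPM in CDCA, with overlap. TFRC is the main route of transferrin iron into dividing cells, and nothing was read from its 2 listed transcripts.

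NCOA4 (ENSSSCG00000010399) was listed at 1.2, 0.9 and 1.97 TPM in CON, against 0.64, 2.14 and 2.04 TPM in CDCA. The lowest and the highest values of the 6 libraries were both in CDCA. NCOA4 differed by a log2 value of 0.11 (SE 0.30), which became 0.42 without CDCA replicate 1 and -0.05 without CDCA replicate 2. IREB2 (ENSSSCG00000001756) was at 1.65, 1.17 and 1.29 TPM in CON, against 1.56, 0.87 and 1.15 TPM in CDCA, with overlap and a log2 fold change of -0.12 (SE 0.16). It was -0.24 without CDCA replicate 1 and -0.01 without CDCA replicate 2, so no direction can be given for either gene. ACO1 (ENSSSCG00000023807) had 0, 0.08 and 0.26 TPM in the CON libraries and 0 in each CDCA library. The proteins of NCOA4, ACO1 and IREB2 act on ferritin protein and on the mRNAs of the pathway.

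**Figure D3:**
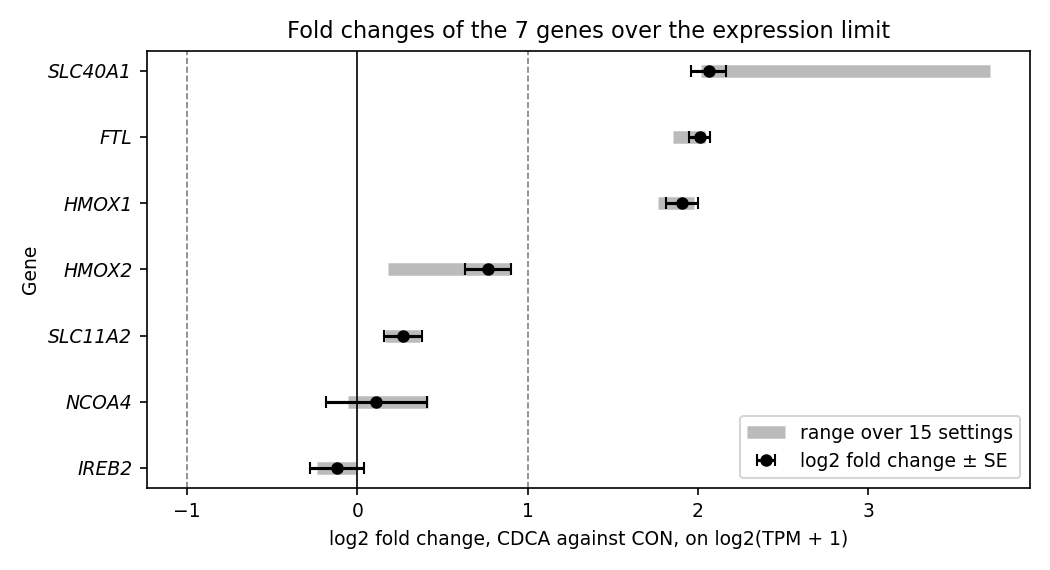
Log2 fold change of CDCA against CON on log2(TPM + 1) (x axis) for the 7 genes whose mean reached 1 TPM. Points and bars give the value and its SE, grey bands the range over 15 ways of processing the values, and dashed lines a change of 1 in size. SLC40A1, FTL and HMOX1 lie beyond 1 under every setting in which they could be fitted, and the band of NCOA4 crosses 0.

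Across the 8708 gene IDs whose mean over the 6 libraries reached 1 TPM, limma (trend) was fitted on log2(TPM + 1) with p-values adjusted by the Benjamini-Hochberg method. Calls needed an FDR under 0.05 together with a log2 fold change beyond 1 in size. Of all tested genes, 3.51% were called higher in CDCA and 3.90% lower, that is 306 and 340 genes, and with totals taken without the genes encoded by mitochondrial DNA these counts were 231 and 464. Of the 7 members over the limit, FTL, HMOX1 and SLC40A1 were past the call limits upward and none downward. With an FDR under 0.05 as the only limit, 29.3% of tested genes were higher and 23.9% lower, and 4 members, now with HMOX2, were higher and none lower. The groups did not overlap with CDCA higher for 33.7% of tested genes and with CDCA lower for 27.8%, against 5 and 0 of the members. As the members were picked with this contrast known, these shares are set side by side and nothing is read from them, least of all for SLC40A1, whose CDCA libraries alone took it over the expression limit. By size of the upward log2 fold change among the 8708 genes, SLC40A1 had rank 46, FTL rank 48, HMOX1 rank 56 and HMOX2 rank 667.

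The library profiles of FTL and HMOX1 were alike. After each gene's own mean was taken off, the root mean square difference between their log2(TPM + 1) values over the 6 libraries was 0.0781, and each was the nearest to the other among tested genes with a symbol. Next nearest to FTL were PHF1 (0.0991) and SLC3A2 (0.0997), and next nearest to HMOX1 were FAM98C (0.101) and ATF3 (0.104). SLC3A2 encodes a subunit of amino acid transporters and ATF3 a stress-induced transcription factor. The measure holds the group difference itself, and all of these genes had log2 fold changes of 1.80 to 2.01. Within CDCA, replicate 2 was the highest library for FTL, HMOX1, HMOX2, SLC11A2 and NCOA4, whereas SLC40A1 was highest in replicate 3 and IREB2 was lowest in replicate 2.

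The sizes of these differences moved with the scale of the TPM. With totals taken without the genes encoded by mitochondrial DNA, the median log2 fold change of all tested genes was -0.08 in place of 0.05, and those of FTL and HMOX1 were 1.86 and 1.77. On leaving out single libraries, the value of FTL lay between 1.95 and 2.04, that of HMOX1 between 1.83 and 1.97 and that of SLC40A1 between 2.02 and 2.09.

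The other genes of the pathway were taken from 8 lists of 120 genes, written by gene function but with earlier results of these data known. The FDR values and counts of list genes are therefore no independent test of the lists. Of the 120 genes, 113 had a gene ID and 76 gene IDs reached a mean of 1 TPM. Over all tested genes, 3.51% were called higher and 3.90% lower, and 29.3% were higher and 23.9% lower at an FDR under 0.05. By limma, 6 of the 76 were called higher in CDCA and 0 lower, and with an FDR under 0.05 alone 34 were higher and 13 lower (36 and 16 at an unadjusted p under 0.05). Without CON replicate 2 these were 33 higher and 8 lower. Their median log2 fold change was 0.15, against 0.05 for all tested genes. With totals taken without the genes encoded by mitochondrial DNA the split at this FDR became 25 higher and 23 lower, and over all tested genes it went from 2550 and 2085 to 1781 and 2793.

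**Figure D4:**
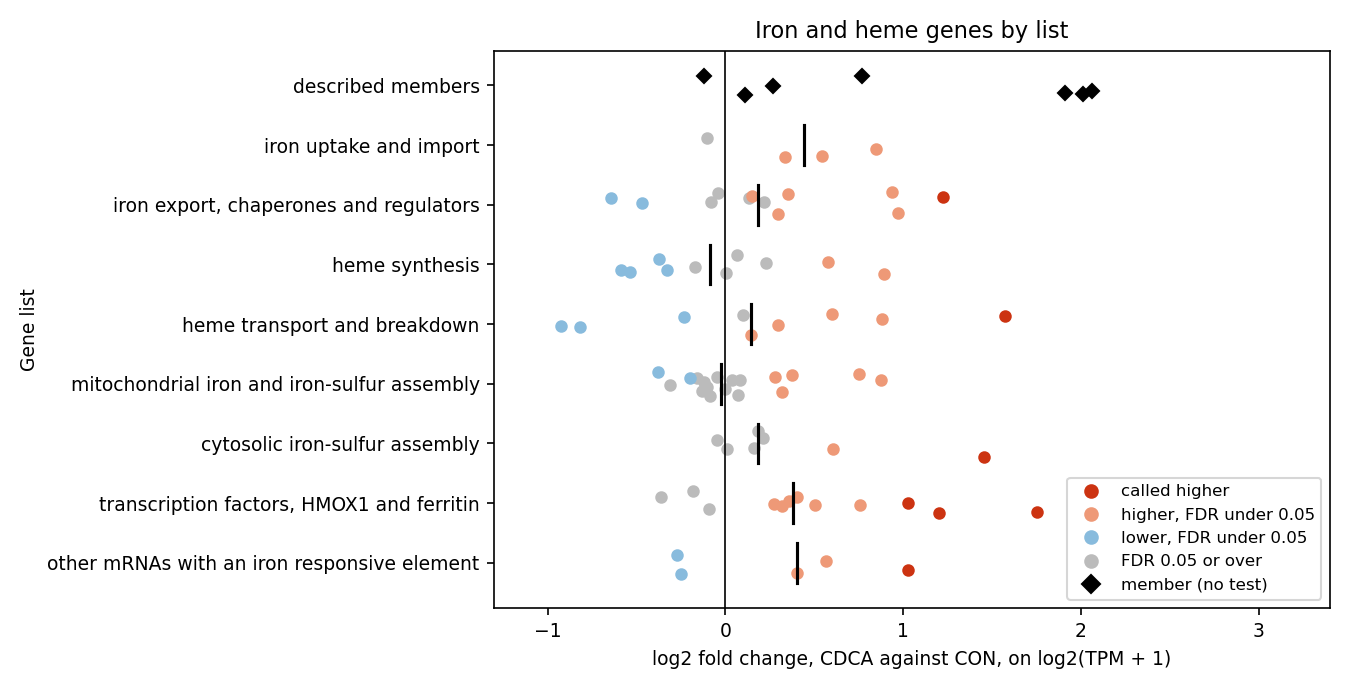
Log2 fold change of CDCA against CON on log2(TPM + 1) (x axis) of each tested gene of the 8 iron and heme lists (rows), coloured by the limma result, with a vertical line at the median of each list. The 7 described members over the expression limit are shown above them as diamonds with no test. The genes called higher are PROM2, POR, NUBP2, MAFF, NFE2L1 and EPAS1, the last in 2 lists, and no list gene was called lower.

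The list of 16 genes for transcription factors that act on HMOX1 or ferritin genes also holds KEAP1, which encodes a regulator of such a factor. Of the 16, 12 were tested, 3 were called higher and none lower. At an FDR under 0.05, 9 were upward, KEAP1 among them, and none downward, with a median log2 fold change of 0.38. With totals taken without the mitochondrial genes these became 6 upward and 3 downward, and the median was 0.23. Without CON replicate 1 or CDCA replicate 2, and with the replicate block, median ratio scaling or a mean of at least 5 TPM, 1 was downward. The upward count was 7 without CDCA replicate 1 and with the highest listed transcript. MAFF, a small MAF protein that pairs with NRF2-type factors, was at 4.13, 4.47 and 3.42 TPM in CON, against 15.37, 17.07 and 14.97 TPM in CDCA (log2 fold change 1.75, SE 0.10, limma FDR 2.8e-05). NFE2L1, which encodes an endoplasmic reticulum-anchored relative of NRF2, rose from 27.1 ± 2.5 to 63.5 ± 0.60 TPM (SD, n = 3), with a log2 fold change of 1.20 (limma FDR 2.8e-05). EPAS1, the hypoxia factor HIF-2α whose mRNA carries an iron responsive element, rose from 1.88 ± 0.16 to 4.88 ± 0.60 TPM (SD, n = 3). Its log2 fold change of 1.03 (limma FDR 0.00031) was just over the limit and under it in 5 of the other settings, with a range of 0.91 to 1.33. In the list of further mRNAs with such an element, to which FTL and other members do not belong, 5 were tested with 3 higher and 2 lower at an FDR under 0.05, and 1 was lower when any library but CDCA replicate 3 was left out. Beside EPAS1, CDC42BPA (0.57, limma FDR 0.0052) and PFN2 (0.40, limma FDR 0.0018) were higher.

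The list of iron uptake and import had 4 tested genes, of which none was called, 3 had an FDR under 0.05 upward and none downward, and 12 gene IDs were under the limit. On the totals without mitochondrial genes, 2 were upward and 1 downward. SLC39A14 (ZIP14), a transporter of iron not bound to transferrin, was at 10.56, 9.8 and 10.29 TPM in CON, against 18.54, 18.67 and 20.29 TPM in CDCA (log2 fold change 0.85, SE 0.06, limma FDR 6.2e-05). NDFIP2, an adaptor in the ubiquitination of SLC11A2, rose from 26.1 ± 0.61 to 38.7 ± 2.4 TPM (SD, n = 3), and the metalloreductase STEAP2 had a log2 fold change of 0.34 (limma FDR 0.012). The FDR of STEAP2 was 0.10 with totals taken without the genes encoded by mitochondrial DNA.

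In the list of iron export, chaperones and regulators, 12 genes were tested, with 1 called higher, none lower, and 6 higher and 2 lower at an FDR under 0.05, or 4 and 3 on the totals without mitochondrial genes. The 2 lower genes became 1 without CON replicate 1, CON replicate 2, CDCA replicate 1 or CDCA replicate 2, and with the replicate block. PROM2, a membrane protein reported to carry ferritin out of cells in vesicles, was at 3.88, 3.45 and 3.71 TPM in CON, against 8.98, 11.09 and 9.87 TPM in CDCA (log2 fold change 1.23, SE 0.09, limma FDR 7.6e-05). SKP1, a subunit of the ubiquitin ligase that removes IREB2 protein, rose from 1.72 ± 0.25 to 4.32 ± 0.19 TPM (SD, n = 3), and TAX1BP1, an autophagy receptor that acts with NCOA4, rose from 49.1 ± 3.1 to 95.1 ± 2.7 TPM (SD, n = 3). Their log2 fold changes of 0.97 (limma FDR 0.00032) and 0.94 (limma FDR 3.1e-05) were just under the limit for a call, and SKP1 was over it in 3 other settings and TAX1BP1 in 1.

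Heme synthesis went both ways. Of 10 tested genes none was called, 2 were higher and 4 lower at an FDR under 0.05 (2 and 5 on the totals without mitochondrial genes), and the median log2 fold change was -0.08. The 4 lower genes became 3 without CON replicate 1, CON replicate 2, CDCA replicate 1 or CDCA replicate 3. With the highest listed transcript 3 were lower and the median was 0.21, so its sign depends on the transcripts used. ALAS1, the first and rate-limiting enzyme outside the erythroid lineage, was at 17.5, 19.85 and 20.06 TPM in CON, against 35.62, 36.72 and 36.58 TPM in CDCA (log2 fold change 0.89, SE 0.06, limma FDR 5.8e-05). SLC25A38, the mitochondrial glycine carrier that feeds this step, had a log2 fold change of 0.58 (limma FDR 0.0015). CPOX, a later enzyme of the pathway, fell from 21.4 ± 0.15 to 13.9 ± 0.56 TPM (SD, n = 3), with a log2 fold change of -0.59 (limma FDR 0.00013).

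In heme transport and breakdown, 9 genes were tested, 1 was called higher and none lower, and 5 were higher and 3 lower at an FDR under 0.05, or 3 and 3 on the totals without mitochondrial genes. The 5 higher genes became 2 without CDCA replicate 2 or CDCA replicate 3, and 3 without CON replicate 3 or with the replicate block, and 3 were lower each time. POR, which hands electrons to heme oxygenase and to cytochromes P450, was at 0.81, 5.24 and 3.89 TPM in CON, against 10.02, 10.54 and 10.41 TPM in CDCA. The CON libraries were widely spread, and the log2 fold change was 1.57 (SE 0.43, limma FDR 0.020), with a range of 1.04 to 1.96 over the settings, and the call was lost without CDCA replicate 2, without CDCA replicate 3 and with no filter on low values. BLVRB, which encodes biliverdin reductase B, rose from 76.96 ± 4.1 to 142.6 ± 13 TPM (SD, n = 3), a log2 fold change of 0.88 (limma FDR 0.00013). SLC46A1, a heme and folate carrier, was at 1.88, 3.72 and 2.08 TPM in CON, against 0.69, 0.96 and 0.84 TPM in CDCA, with a log2 fold change of -0.93 (limma FDR 0.0084), and it was past the limit for a call in 5 other settings.

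The counts of genes that build iron-sulfur clusters are set beside the shares over all tested genes, 29.3% higher and 23.9% lower at an FDR under 0.05. Of 18 tested genes of mitochondrial iron supply and cluster assembly none was called, and 5 were higher and 2 lower at an FDR under 0.05, with a median log2 fold change of -0.02. On the totals without mitochondrial genes, 4 were higher and 6 lower. None was lower without CON replicate 1, CON replicate 2, CDCA replicate 2 or CDCA replicate 3, and 1 was lower without CON replicate 3 or with the replicate block, so no downward count holds for this list. HSPA9, the mitochondrial chaperone used in cluster transfer and protein import, rose from 125.8 ± 8.4 to 230.8 ± 2.3 TPM (SD, n = 3), a log2 fold change of 0.87 (limma FDR 3.6e-05). SLC25A37 (mitoferrin-1), an importer of iron into mitochondria, rose from 4.39 ± 0.91 to 8.03 ± 1.1 TPM (SD, n = 3), a log2 fold change of 0.75 (limma FDR 0.0062), and GLRX5, a cluster carrier, had a log2 fold change of -0.38 (limma FDR 0.043), with an FDR of 0.11 without CON replicate 3. Of 7 tested genes of the cytosolic branch, 1 was called higher and none lower, and 2 were higher and none lower at an FDR under 0.05. These were the scaffold genes NUBP2, at 3.2 ± 0.79 and 10.5 ± 1.8 TPM (SD, n = 3; log2 fold change 1.46, limma FDR 0.00052), and NUBP1 (0.60, limma FDR 0.0049). When its strongest listed transcript alone was used, the log2 fold change of NUBP2 was 0.87 and it was not called.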

How the data were processed

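Total RNA of 6 IPEC-J2 samples was sequenced. The authors estimated abundances with RSEM, and the deposited TPM cover 63041 transcripts. The submitters' processing notes also name Bowtie 0.12.2 and the build mm10, a mouse build, although the gene IDs are porcine. The annotation release is not given in the sources used here, and no coordinates are printed. TPM of a gene ID were summed. Symbols came from a table of gene IDs, then the deposited names, then NCBI gene numbers in the descriptions, and 19865 IDs had one.

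limma 3.58.1 in R 4.3.3 (lmFit, eBayes with trend) compared 3 CDCA with 3 CON libraries on log2(TPM + 1) for gene IDs with a mean of at least 1 TPM. The study used edgeR, which needs counts and was not applied to TPM. The steps were tested on simulated data. Groups came from sample titles. Nothing ties libraries to separate experiments, so p-values measure the spread between these libraries. The dose came from the study's methods.

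The members and lists were chosen with earlier results of these data known. Named list genes were the 3 largest called changes of each list, then the largest with an FDR under 0.05. Alternatives were a pseudocount of 0.1 TPM, no filter, a mean of 5 TPM, 3 scalings, the highest listed transcript, a replicate block and each library left out.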

Additional observations from a re-analysis of the deposited data

How the results depend on the processing

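Calls over all 8708 genes numbered 306 upward and 340 downward. They were 509 and 505 with a pseudocount of 0.1 TPM, 197 and 238 with a mean of at least 5 TPM, 523 and 481 with the listed TPM rescaled to 1000000, 275 and 374 with median ratio scaling, and 231 and 464 with totals without the genes encoded by mitochondrial DNA, so the balance of upward and downward calls depends on the scaling. The 0 list genes called lower became 2 with a pseudocount of 0.1 TPM, 1 with no filter, 1 with totals without the genes encoded by mitochondrial DNA and 2 with rescaling to 1000000, and 0 to 1 with each library left out. The list genes called higher ranged from 5 to 8 over all settings. The share of FTL and FTH1 in CON was 0.312% when the genes encoded by mitochondrial DNA were left out of the total. Calls of the members are not given as support, since the members were chosen on this contrast, and SLC40A1 was not fitted with a mean of at least 5 TPM. With the replicate block, 4218 genes had an FDR under 0.05 in place of 4635, and 6 list genes were called higher, as without it. Same-numbered libraries did not deviate together (correlations of their deviations from the group means of -0.0353, -0.0916 and -0.0509). As each group mean rests on 3 libraries, a shared origin of same-numbered libraries cannot be judged from these correlations. The ratio of heavy to light chain was not run, since FTH1 was listed at 0 in CON libraries. TPM keep no read counts, so the limit that depth sets for single genes was not computed.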

Other observations

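MELTF, which encodes melanotransferrin, an iron-binding relative of transferrin held at the cell surface, was in none of the lists and was picked after its values were seen. Its 2 listed transcripts summed to 1.63, 2.31 and 2.16 TPM in the CON libraries and to 6.1, 6.31 and 6.74 TPM in the CDCA libraries. The groups did not overlap, the ratio of means was 3.14, and the log2 fold change was 1.29 (SE 0.11), given as a description with no test. Transferrin itself was at 0.02 to 0.09 TPM in every library by one of its 2 gene IDs and at 0 by the other.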
